A study of Mus musculus with 2 samples.

Results

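The Rab small GTPase genes were followed in calvarial osteoblasts, bone-forming cells grown from the skull vault of newborn mice, across both Affymetrix arrays of the series. Members were all probe sets whose annotation names a single gene with a current symbol made of Rab, a number and at most a letter and a further digit. This gave 95 of 20380 single-gene probe sets and 50 of 12393 genes. The cells came from C57Bl/6 mice aged 4 to 5 days. One array was labelled Col1-Dlk1, for cells with a transgene that overexpresses Dlk1, a transmembrane relative of the Notch ligands, and the other wild type, for non-transgenic littermates. The labels do not spell out the promoter of the transgene. For each genotype 3 cultures were combined on 1 array, and the transgenic cells were sorted for Dlk1. The labels do not say if wild-type cells were sorted.

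Rab proteins are molecular switches of membrane traffic. Bound to GTP they sit on a membrane and recruit effectors such as motors and tethers, and bound to GDP they are extracted to the cytosol by GDP dissociation inhibitors. Each Rab marks particular compartments, so the family reads as a map of the cell's organelles. In bone-forming cells this machinery carries procollagen from the endoplasmic reticulum outwards, and in macrophages it matures phagosomes and lysosomes.

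Each value is a linear probe-set intensity. A difference is Col1-Dlk1 minus wild type, as labelled, in log2(intensity + 10.96), where the pseudocount is the 25th percentile of all values and shrinks the difference of dim genes. Several probe sets of a gene were averaged on that scale. The level threshold was 42.8, the median of all values, to be reached by the brighter of the readings. A gene that reached it was called if its readings were 2-fold or more apart. There is no replicate, test or error, so a call compares these arrays and says nothing of the spread between cultures. Where a pair of readings follows a gene, the first is from the array labelled Col1-Dlk1 and the second from the array labelled wild type, and a difference follows in parentheses.

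Several values of the whole series bear on every direction below. Dlk1 itself read 26.5 and 306, against the labels, so directions are given between the arrays as labelled. All 22 macrophage markers were called higher on the array labelled Col1-Dlk1, against 9.39% of all level-passing genes. Their summed intensity there was 27365 against 452. Of 17 measured cell cycle genes, 16 passed the level threshold and all 16 were called lower, against 7.11% of all level-passing genes. None of the macrophage markers was at 0 on the wild-type array. The lowest there was Aif1 at 1.16, and Csf1r, which encodes the CSF1 receptor, read 43.3. The part of macrophage RNA or of dividing cells in the Rab values was not tested. The collagen genes Col1a1 and Col1a2 read 1772 and 1462 (0.28), and 6261 and 7071 (-0.18). The matrix protein gene Sparc read 7535 and 4818 (0.64), and Msx2, which encodes a homeobox factor, was called higher at 474 and 29.5 (3.58). The other 8 of 12 measured osteoblast markers, among them Sp7, Alpl and Ibsp, did not reach the level threshold. In bulk RNA, fewer cells of a type and less RNA per cell cannot be told apart.

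The 250 bases upstream of the start site are given for Rab32, Rab11a and Rab5a. Among level-passing members, Rab32 and Rab11a had the largest positive differences and Rab5a the largest negative one within 2-fold. Rab27b, the called member, lay lower still and is not shown. The members shown were chosen after their values were seen, and the sequences are from RefSeq, build GRCm38.p6. Rab32 lies at chr10:10558208-10558457 on the minus strand, Rab11a at chr9:64737757-64738006 on the minus strand and Rab5a at chr17:53478984-53479233 on the plus strand. Capitals mark matches, on either strand, to GAGGAA (the core bound by the myeloid factor PU.1), CACGTG (the E-box core of the CLEAR element of lysosomal genes), TGACG (a half-site of the cAMP response element), TGANTCA (AP-1) and CCAAT (NF-Y), and matches can overlap.
Rab32: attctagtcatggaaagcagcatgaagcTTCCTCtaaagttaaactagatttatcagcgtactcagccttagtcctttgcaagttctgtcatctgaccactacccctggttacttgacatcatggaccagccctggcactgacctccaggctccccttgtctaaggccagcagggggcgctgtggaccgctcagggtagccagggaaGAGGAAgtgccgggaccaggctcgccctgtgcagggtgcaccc
Rab11a: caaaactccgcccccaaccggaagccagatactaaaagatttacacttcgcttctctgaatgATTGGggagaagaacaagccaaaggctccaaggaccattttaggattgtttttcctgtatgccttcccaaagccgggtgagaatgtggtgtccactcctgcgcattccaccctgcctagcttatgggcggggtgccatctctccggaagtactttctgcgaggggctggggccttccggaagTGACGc
Rab5a: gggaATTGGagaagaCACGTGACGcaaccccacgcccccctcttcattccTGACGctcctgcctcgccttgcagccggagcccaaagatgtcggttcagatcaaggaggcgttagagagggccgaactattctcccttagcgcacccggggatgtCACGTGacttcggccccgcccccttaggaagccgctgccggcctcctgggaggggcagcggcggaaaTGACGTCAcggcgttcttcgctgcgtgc

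The window of Rab32 held a PU.1 core on each strand, starting 222 and 43 bases before the start site, and no other motif searched. The window of Rab11a held a CCAAT box and a TGACG match, and the window of Rab5a held a CCAAT box, 2 E-boxes and 4 TGACG matches, of which a pair overlap each other and another overlaps an E-box. Of 50 members, 42 had a window, 54 windows in all, and 4 of these 54 held matches that overlap. The PU.1 core was in 8 of the 54 (14.8%) and in 23.3% of all 32851 windows of the same length. The E-box was in 5 (9.26%) and in 6.02% of all. It was in 10 of 32 windows (31.2%) of genes for lysosomal membrane proteins and hydrolases. Of 10 windows of late endosome and lysosome Rabs, 1 held it (10%), that of Rab20. TGACG was in 23 Rab windows (42.6%) and 17.8% of all, CCAAT in 40.7% and 33.8%, and AP-1 in 3.70% and 6.75%. Rab windows had a median GC content of 60.2% against 52.4% of all. They held a median of 15 CG pairs against 6, and TGACG and CACGTG each contain this pair. The part of base composition in these shares was not tested. These matches are a description of letters and show no binding.

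Across the family the arrays differed little. Of the 50 genes, 36 passed the level threshold and 14 did not. None of the 36 was called higher, where 9.39% of all level-passing genes were, and 1 was called lower, Rab27b, where 7.11% were. In either direction the share was 2.78%, against 16.5% of all 6795 level-passing genes. At 1.5-fold, 5 were higher (13.9%) and again 1 lower, against 19.2% and 17% of all. Without a level threshold, none of the 50 was higher and 3 were lower at 2-fold, against 7.62% and 6.23% of all genes. A difference under 1.5-fold was found for 30 of the 36 (83.3%) and for 63.8% of all level-passing genes. The median difference over all 50 members was 0.18 log2 units, with an interquartile range of 0.47, beside a median of 0.01 and an interquartile range of 0.76 over all 12393 genes. The Rab genes passed the level threshold more often (72.0%) than all genes (54.8%). With the threshold raised to the 75th percentile of values, none of the 20 Rab genes past it was called, against 10.7% higher and 7.64% lower among all such genes. Differences were above 0 in 33 of 50 members (66.0%) and in 51.2% of all genes.

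**Figure D1:**
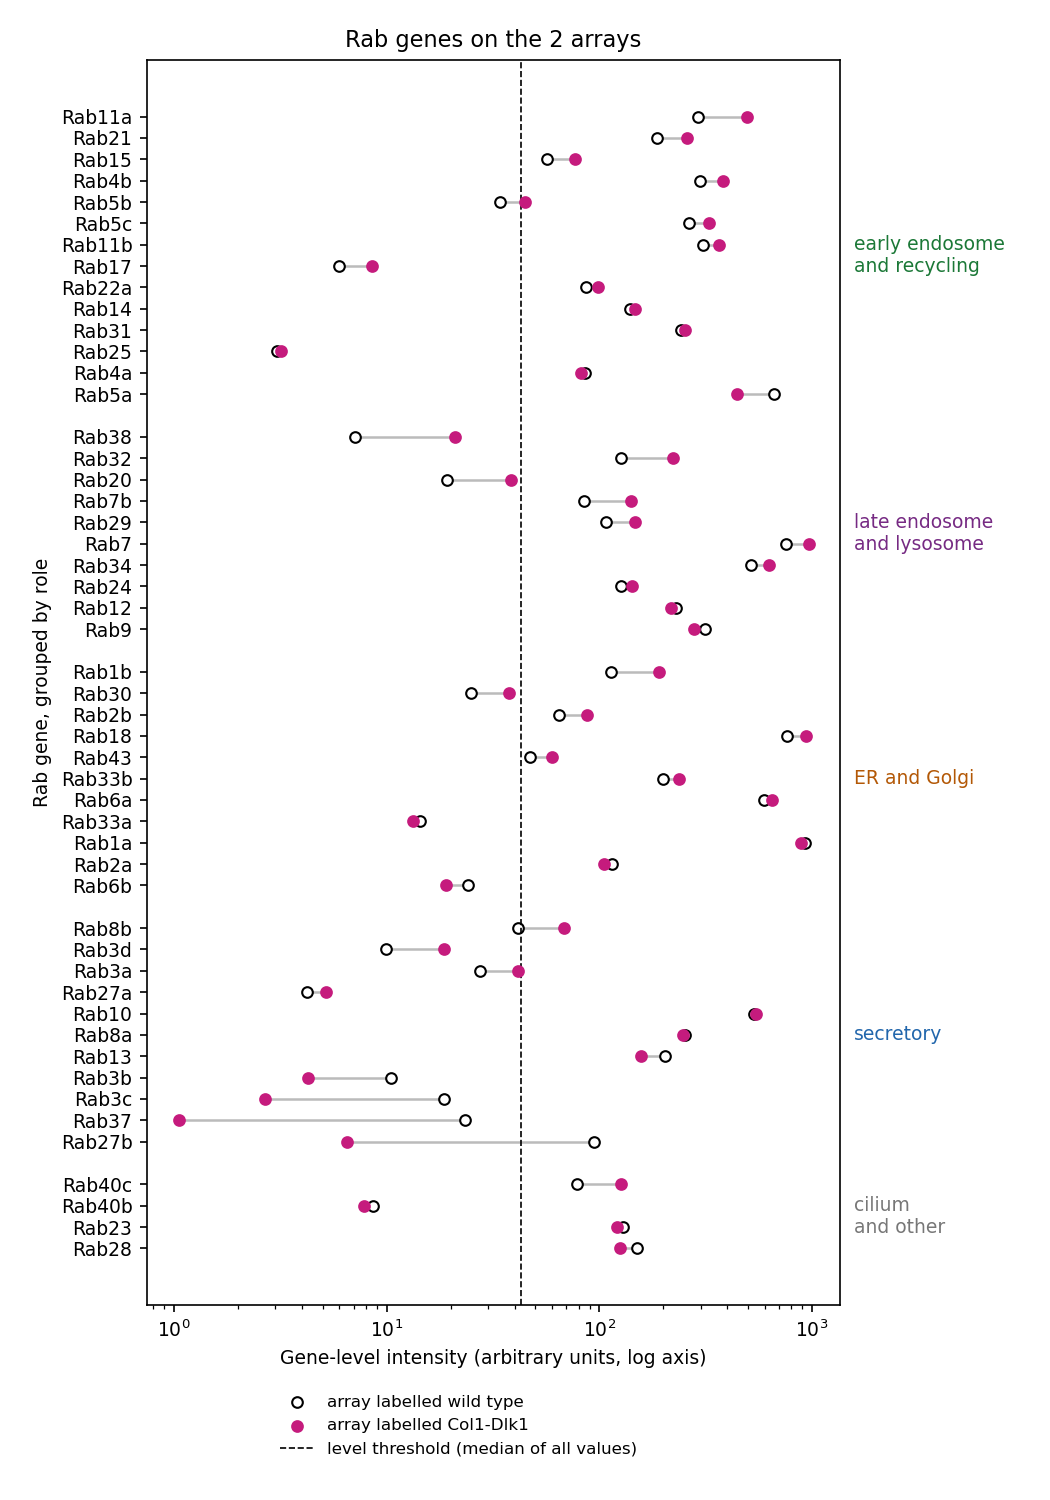
Gene-level intensity (arbitrary units, log axis) of the 50 Rab genes on the array labelled wild type (open points) and the array labelled Col1-Dlk1 (filled points), grouped by role, with the level threshold of 42.8 as a dashed line. Most pairs of points lie close together, and the only level-passing gene with a wide gap is Rab27b, at 6.50 against 94.9.

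**Figure D2:**
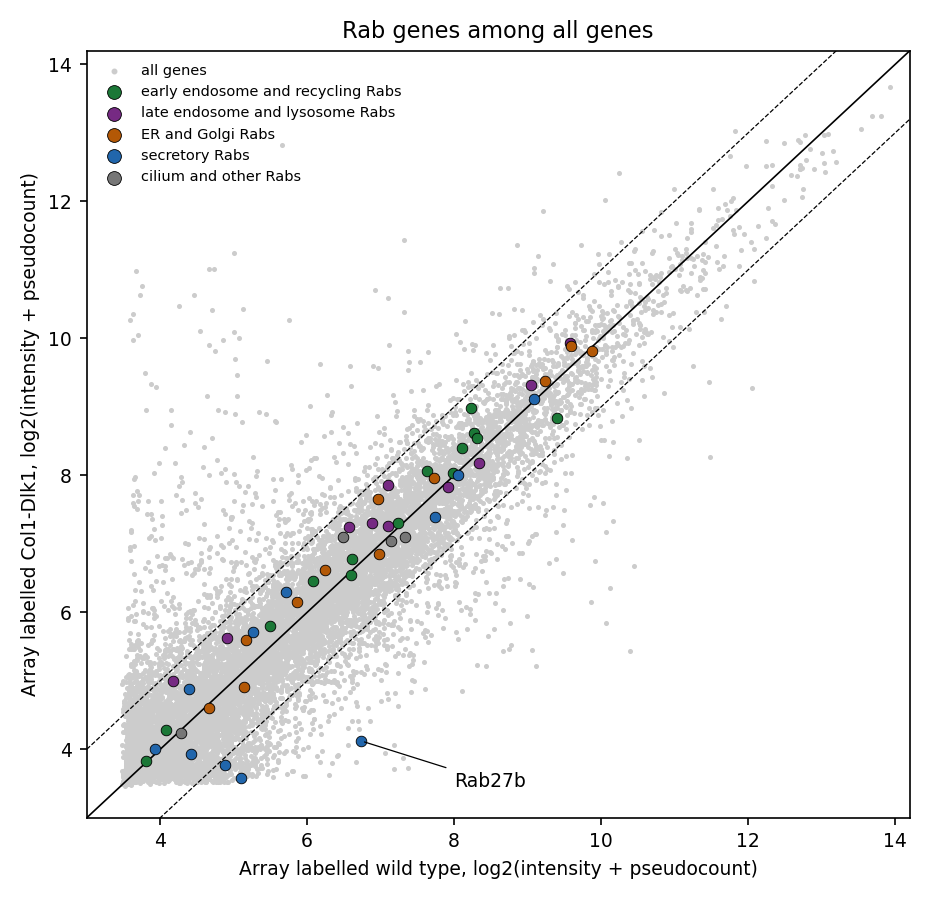
Log2(intensity + pseudocount) of every gene (grey) and of the Rab genes (coloured by role) on the array labelled wild type (x axis) and the array labelled Col1-Dlk1 (y axis). The solid line marks equality and the dashed lines a 2-fold difference; 36 Rab genes passed the level threshold and Rab27b alone of them lies beyond a dashed line.

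The early endosome and recycling Rabs, which receive cargo from the cell surface and return it there, were mostly a little higher on the array labelled Col1-Dlk1. Of 14 measured, 12 passed the level threshold and none was called, against 16.5% of all level-passing genes in either direction. Differences were above 0 in 12 of the 14, with a median of 0.22. Rab11a, the Rab of the slow recycling endosome, read 497 and 290, a 1.69-fold difference (0.76 log2 units). Its probe sets gave 0.75 and 0.76. Its near copy Rab11b read 364 and 306 (0.24).

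The 3 forms of Rab5, the switch of early endosome fusion, differed in sign. Rab5a read 444 and 662, the only member of the group more than 0.1 log2 units lower on the array labelled Col1-Dlk1 (-0.56). Rab5c read 328 and 264 (0.30) and Rab5b 44.8 and 34.0 (0.31), just above the level threshold on one array. Each of the 3 rests on a single probe set. The fast-recycling pair Rab4a and Rab4b read 82.2 and 85.6 (-0.05), and 383 and 298 (0.35).

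Rab21, which acts in integrin traffic, read 258 and 188, a difference of 0.44 with probe sets at 0.54 and 0.34. Rab15 read 77.0 and 56.5 (0.38), and Rab22a, another early endosomal Rab, 98.6 and 87.0 (0.16). Rab14, which links endosomes and the Golgi, read 147 and 140 (0.07) over 6 probe sets that spanned -1.25 to 0.93, both ends coming from probe sets below the level threshold. Rab31, which carries cargo from the Golgi to endosomes, read 253 and 242 (0.06). The epithelial Rabs Rab17 (8.52 and 5.96) and Rab25 (3.19 and 3.04) did not reach the level threshold.

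The late endosome and lysosome Rabs had the highest median of the 5 role groups, 0.38, with 8 of 10 differences above 0. The level threshold was passed by 8 of 10 and none was called, against 16.5% of all level-passing genes in either direction. Rab7, which drives late endosomes towards lysosomes, read 963 and 753 (0.35), and its probe sets gave 0.43 and 0.27. Rab7b, named for its likeness to Rab7 but acting in transport back to the Golgi, read 141 and 84.3 (0.68), with probe sets at 0.71 and 0.64. Rab32, which serves lysosome-related organelles, read 221 and 126 on its 1 probe set, a 1.69-fold difference (0.76). Its partner Rab38 read 21.0 and 7.07 (0.83), and Rab20, which acts on phagosomes, 38.5 and 19.1 (0.72), both below the level threshold on both arrays.

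Rab29 read 147 and 108 (0.41), Rab34, which positions lysosomes, 630 and 518 (0.28), and the autophagy-linked Rab24 142 and 126 (0.15). Rab9, which returns receptors from late endosomes to the Golgi, read 280 and 313 (-0.16), and Rab12 217 and 231 (-0.08), the only differences of the group below 0. The proteins that fill the same organelle differed more. Of 31 level-passing genes for lysosomal membrane proteins and hydrolases, 15 were called higher (48.4%) and none lower, against 9.39% and 7.11% of all level-passing genes. The median over 33 measured was 0.90, and all 33 differences were above 0, against 51.2% of all genes. Apart from Laptm5 (4.05), which is also a macrophage marker, Ctsb (2.51), Ctsd (1.97), Tpp1 (1.74), Lipa (1.65) and Sgsh (1.58) led it. These are lysosomal proteases, a lipase and a sulfatase. The difference between the 2 lists was not tested, since genes are not replicates.

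The ER and Golgi Rabs, which move newly made proteins such as collagen through the first steps of secretion, had a median of 0.24. Of 11 members, 8 passed the level threshold and none was called, against 16.5% of all level-passing genes in either direction. Rab1a, which controls transport from the endoplasmic reticulum to the Golgi, read 890 and 931 (-0.06), while its near copy Rab1b read 191 and 114 (0.69). Rab2a read 105 and 115 (-0.12) over 7 probe sets spanning -0.69 to 0.31, the lower end coming from a probe set below the level threshold. The probe sets past it gave 0.19, -0.37 and 0.31, so the gene mean also rests on dim ones. Rab2b read 87.2 and 64.5 (0.38), with all 5 probe sets above 0.

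Rab6a, the Rab of transport within and back from the Golgi, read 652 and 592 (0.14), and Rab18, found on the endoplasmic reticulum and lipid droplets, 938 and 761 (0.30). Rab33b, a Golgi Rab, read 237 and 200 (0.24). Rab43 read 60.2 and 47.0 (0.29), with probe sets in opposite directions at 0.83 and -0.24. Rab30 (37.4 and 25.04), the neuronal form Rab6b (19.1 and 24.2) and Rab33a (13.4 and 14.3) were below the level threshold.

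The secretory Rabs, which bring vesicles and granules to the plasma membrane, were the only one of these groups with a called member. Of 11 measured, 6 did not pass the level threshold. Of the 5 that did, 1 was called (20%), against 16.5% of all level-passing genes in either direction. The group median was -0.04, with 5 of 11 differences above 0. Rab27b, which docks secretory granules and exosome-bearing endosomes, read 6.50 and 94.9, a difference of -2.60. Both probe sets lay in this direction, the brighter at 13.7 and 243 (-3.37) and the dimmer at 1.40 and 33.1 (-1.83). On the array labelled Col1-Dlk1 both read near or under the pseudocount, so the 6.06-fold difference depends on it. With a pseudocount of 1 the difference was -3.94 and with 50 it was -1.45.

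Rab27a, the close paralog of Rab27b, read 5.16 and 4.22 (0.09), with its 3 probe sets below the level threshold and spread from -0.86 to 0.99. Of the Rab27 effectors measured, Sytl2, which tethers granules to the plasma membrane, was called higher on the array labelled Col1-Dlk1 at 119 and 35.5 (1.49). Sytl1 (21.6 and 3.70), Sytl4 (7.70 and 16.8) and Mlph (10.2 and 3.88) were below the level threshold. Rab27b and Sytl2 therefore differed in opposite directions between the arrays.

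The gene means of the 4 Rab3 genes, which act in regulated exocytosis, were all below the level threshold. Rab3c read 2.68 and 18.5 (-1.11), and of its 3 probe sets the brightest, at 3.85 and 52.7 (-2.10), was past both thresholds when probe sets were counted singly. With Rab27b this made 2 of 64 level-passing Rab probe sets called lower and none higher, beside 8.18% and 9.45% of all level-passing single-gene probe sets. Rab3b read 4.27 and 10.5 (-0.49), Rab3a 41.6 and 27.5 (0.45) and Rab3d 18.6 and 9.97 (0.50). Rab37, a Rab of mast cell granules, read 1.05 and 23.3 (-1.51), also below the level threshold, where no gene can be called.

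The Rabs of constitutive and polarised delivery all passed the level threshold and lay within 2-fold. Rab10, which carries glucose transporters and basement membrane proteins, read 543 and 533 (0.03), with its 3 probe sets between -0.01 and 0.05. Rab8a, which acts between the Golgi, the plasma membrane and the cilium, read 247 and 254 (-0.04), its paralog Rab8b 67.9 and 41.6 (0.58), and the junction Rab Rab13 156 and 203 (-0.35).

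The remaining members are linked to the cilium or less well placed. Rab23, a regulator of Hedgehog signalling, read 121 and 130 (-0.09) and the ciliary Rab28 126 and 150 (-0.23), and for each the 2 probe sets lay on opposite sides of 0. Rab40c, part of a ubiquitin ligase, read 127 and 78.5 (0.62), with probe sets at 0.85 and 0.39, and Rab40b 7.83 and 8.60, below the level threshold. The role lists hold 10 further Rab genes that were not analysed here because no single-gene probe set names them.

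**Figure D3:**
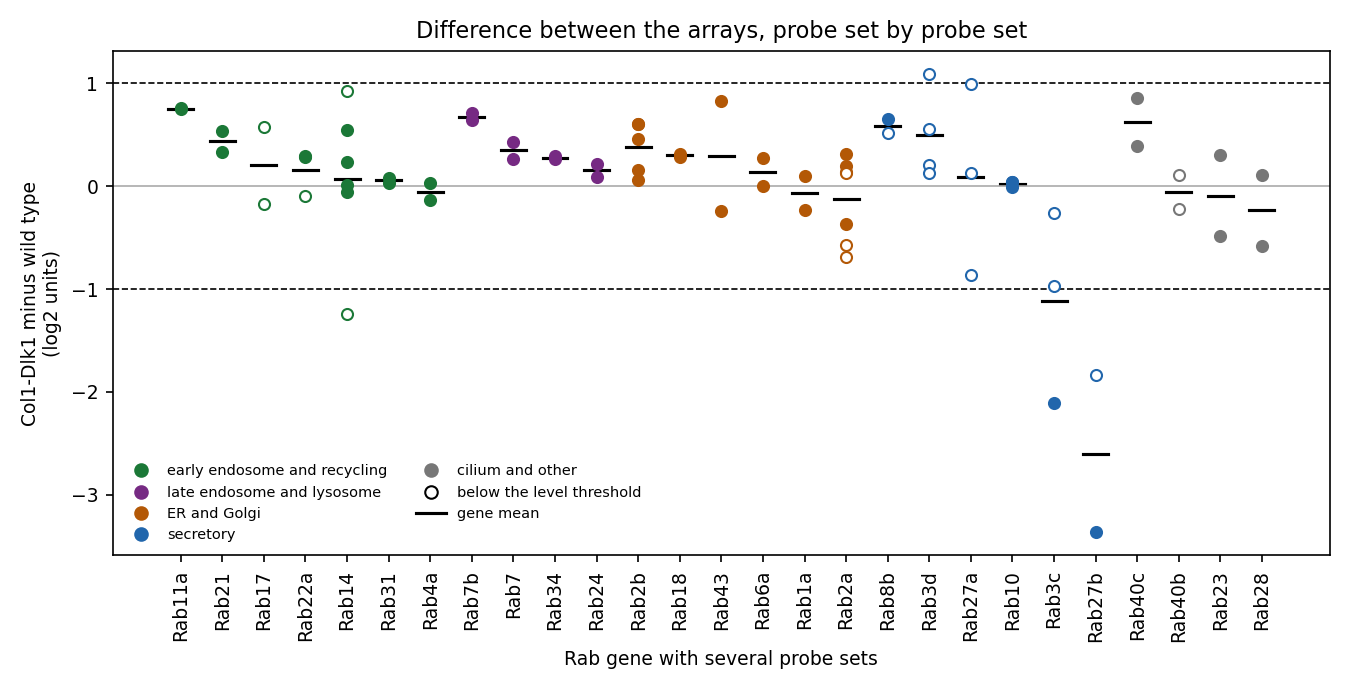
Difference between the arrays (Col1-Dlk1 minus wild type, log2 units) for each probe set of the 27 Rab genes with several, coloured by role, with open points below the level threshold and a bar at the gene mean. Dashed lines mark 2-fold; both probe sets of Rab27b lie below the lower line, while 1 of 3 of Rab3c and 1 dim one of 6 of Rab14 do so.

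Probe sets of a gene read the same RNA on the same arrays, though they can read different parts of its transcripts. The gap between them is therefore only a rough guide to technical spread. It takes in probe sets below the level threshold and holds no error between arrays or cultures. Over 83 pairs of probe sets of the same Rab gene the differences lay a median of 0.43 log2 units apart, and over 12821 such pairs of all genes 0.41. In 14 of 27 Rab genes with several probe sets (51.9%) all lay in the same direction, against 57.02% of such genes on the array. The differences of 32 of 50 Rab genes were smaller than the gap of all genes, so the sign of a single small difference is not resolved here. Another 23 Rab genes had 1 probe set, which leaves no such check.

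Of 6 measured Rabs listed as enriched in blood cells, 2 passed the level threshold, Rab32 and Rab7b, at 0.76 and 0.68. Neither was called, against 16.5% of all level-passing genes in either direction. Rab20 (0.72), Rab27a (0.09), Rab33a (-0.06) and Rab37 (-1.51) were too dim to call, and the median of the 6 was 0.38. The marker lists of neutrophils and mast cells (13 measured) and of lymphocytes (11 measured) had no member past the level threshold. Of 9 megakaryocyte and erythroid markers, 3 passed it. Pf4 (5.72) and Ppbp (2.06) were called higher, 2 of 3, against 9.39% of all level-passing genes. Itga2b read 48.9 and 53.9 (-0.12), and the median of the 9 was -0.12. The 6 too dim to call ran from -0.37 (Klf1) to 0.95 (Gp9). Of 9 osteoclast markers, 3 passed it and had differences above 0. Acp5 (50.6 and 4.45, 2.00) and Ctsk (631 and 266, 1.21), which encode a phosphatase and a protease of bone resorption, were called higher. That is 2 of 3, against 9.39% of all level-passing genes. Nfatc1 differed by 0.89, and the median of the 9 was 0.30. The 6 too dim to call ran from -1.21 (Itgb3) to 1.35 (Tnfrsf11a), and Ocstamp (-0.83) and Oscar (-0.04) also lay below 0. The part of osteoclast RNA in the late endosome and lysosome values was not tested. Of 5 measured Rabs listed as neuron-enriched, only Rab15 passed the level threshold, and the median was -0.23.

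Of 121 listed genes that drive the Rab cycle, 68 were measured and 49 passed the level threshold. Of these, 3 were called higher (6.12%, against 9.39% of all level-passing genes) and none lower (against 7.11%), with a median over the 68 of 0.21. In the group that delivers and recycles Rabs, 1 of 6 level-passing genes was called (16.7%, against 16.5% of all in either direction). This was Rabac1, which binds prenylated Rabs at the Golgi, at 1098 and 482 (1.17). Gdi2, the GDP dissociation inhibitor, read 1419 and 1364 (0.06), Chm, the escort protein that presents new Rabs for prenylation, 123 and 68.3 (0.76), and the prenyltransferase subunits Rabggta and Rabggtb differed by 0.48 and -0.22.

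Exchange factors, which load Rabs with GTP, had 1 of 13 level-passing genes called (7.69%, against 16.5% of all in either direction). This was Dennd4b at 66.4 and 16.5 (1.49), and the median over 19 measured was 0.32. GTPase-activating proteins, which switch Rabs off, had none of 12 called, with a median over 16 of 0.08, and Tbc1d10b had the largest difference at 354 and 186 (0.89). Effectors had 1 of 18 called (5.56%), Sytl2, with a median over 26 of 0.23. The endosomal tether Eea1, an effector of Rab5, read 239 and 153 (0.60), and the Rab11 effector Rab11fip5 148 and 82.1 (0.77). Another Rab5 effector, Appl1, read 97.9 and 126 (-0.33), and Ehbp1, Mical1 and the Rab1 effector Uso1 differed by -0.41, -0.40 and -0.35. Of the 18 level-passing effectors, 11 had differences above 0.

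In the Arf family of small GTPases, which builds vesicle coats, none of 12 level-passing genes was called, against 16.5% of all in either direction, and the median over 14 was -0.04. Sar1b, which acts in export from the endoplasmic reticulum, read 859 and 508 (0.75), close to the largest level-passing Rab differences of 0.76 for Rab32 and Rab11a.

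**Figure D4:**
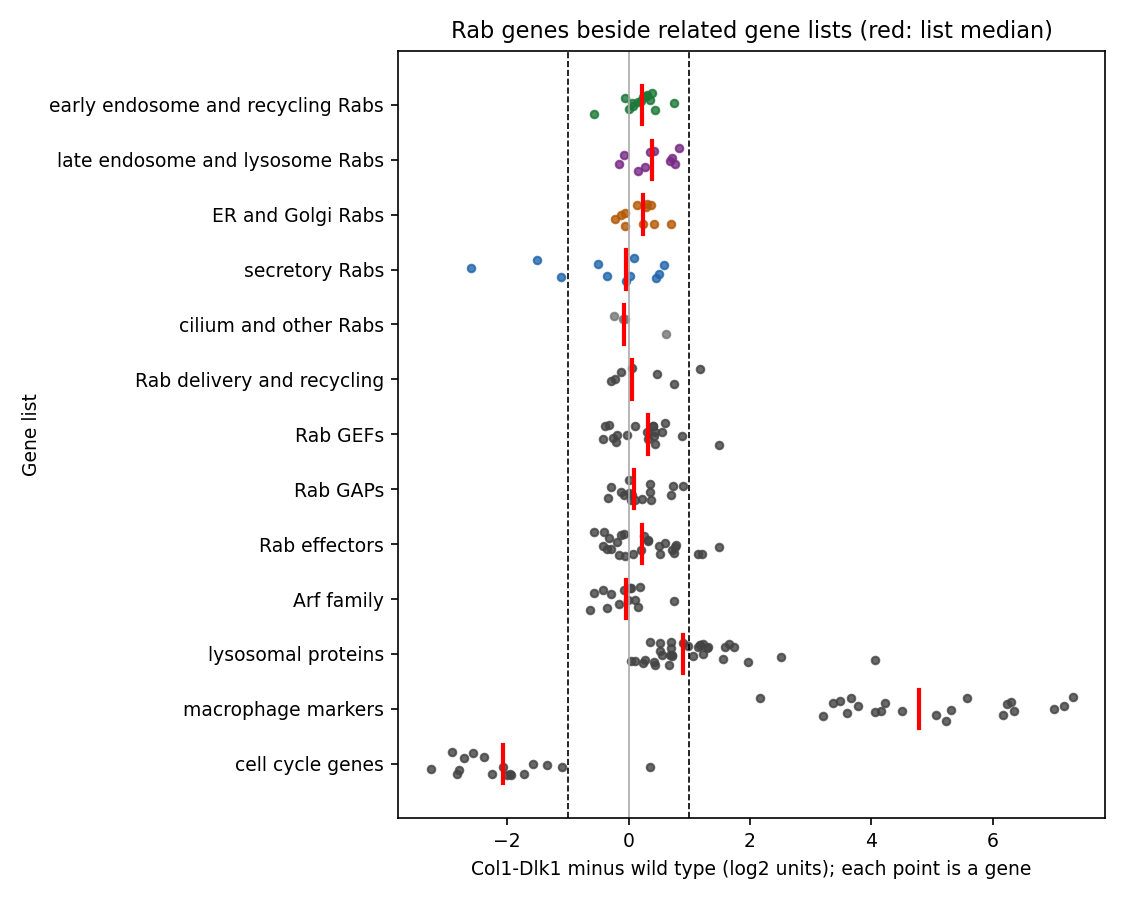
Difference between the arrays (x axis, Col1-Dlk1 minus wild type, log2 units) for each gene of the Rab role groups, the Rab regulators, the Arf family, lysosomal proteins, macrophage markers and cell cycle genes, with list medians in red and 2-fold as dashed lines. Rab medians run from -0.08 to 0.38, against 0.90 for lysosomal proteins, 4.79 for macrophage markers and -2.07 for cell cycle genes.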

How the data were processed

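Arrays were made from biotin-labelled total RNA, 1 per genotype, each of 3 combined cultures. The authors deposited probe-set intensities made with Affymetrix Expression Console 1.1.1, as the submitters' processing notes name it. Its algorithm, background correction and scaling are not given in the sources used. After trimming 2% of values at each end the mean was 150.0 on each array, so the arrays share a scale. No detection calls were used, and the number of arrays limits the precision.

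The table holds 22690 probe sets, 64 of them controls. The platform annotation was joined by probe-set ID and symbols were updated by gene ID through RefSeq. Intensities were turned into log2(intensity + 10.96), and printed intensities of genes with several probe sets are those means turned back. Members, lists and rules were chosen with earlier results of these data known. Every measured Rab gene is named, with the called members of other lists that differ most. Other regulators, effectors and markers were picked after their values were seen. Pooled cultures leave no spread between animals. The calling of genes was tested on simulated data, with shifts larger than 2-fold placed in genes well above the level threshold. That does not test differences near 2-fold, dim genes, list medians or promoter matches. A planned comparison with a further gene family is not reported here. Alternatives covered scaling, pseudocount, level threshold, fold, probe-set handling and symbols. The work was done in Python 3.11.15 with matplotlib 3.10.9, statsmodels 0.14.6, scipy 1.17.1, pandas 2.3.3 and numpy 2.4.6.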

Additional observations from a re-analysis of the deposited data

How the results depend on the processing

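The median Rab difference stayed above 0 under all 11 alternatives, from 0.12 to 0.24. Under the 10 run for groups so did the medians of the early endosome, late endosome, ER and Golgi and blood-cell-enriched groups. A change of level threshold cannot move a list median, which is taken over all measured members, so those settings are no check of it. Leaving the symbols as annotated also left the Rab median at 0.18. The secretory median stayed below 0, from -0.35 to -0.02, and so did that of the Arf family, from -0.10 to -0.02. The median of all genes moved by less than 0.1 under median centring, quantile normalization and loess, none of which changed a Rab call. At 1.5-fold, 5 Rab genes were called higher (Rab11a, Rab1b, Rab32, Rab40c and Rab7b), 13.9% of those past the level threshold against 19.2% of all genes, and Rab27b alone remained lower. That is 1 early endosome, 2 late endosome, 1 ER and Golgi and 1 cilium and other Rab. The 2 late endosome Rabs, Rab32 and Rab7b, are also the 2 blood-cell-enriched ones. At this fold 14 of 49 level-passing regulators and effectors were also higher, a larger share than the 19.2% of all genes, and 0 were lower, against 17% of all. At 2-fold the regulators had the smaller share, 6.12% against 9.39%. In the Arf family 1 of 12 level-passing genes was higher at 1.5-fold. At 3-fold, 0 regulators were called, where 327 of 6795 genes were higher and 204 lower. With a pseudocount of 1, Rab8b was called higher, 1 Rab in all and 1 of the secretory group. That is 2.78% of level-passing Rabs, where 793 of 6704 genes were higher. With a pseudocount of 50, 1 regulator was called higher, where 376 of 6917 genes were. Without a level threshold, 3 of 50 Rab genes were called lower (Rab27b, Rab3c and Rab37), against 6.23% of all genes. All 3 are secretory and 1 of them is blood-cell-enriched. At this setting 5 of 68 regulators were higher, against 7.62% of all genes. At the 75th percentile of values, 0 Rab genes and 0 secretory Rabs were called lower, because Rab27b was not bright enough, against 7.64% of all such genes. Of the regulators 1 was higher, against 10.7% of all such genes. With the brightest probe set of each gene, 2 of 37 level-passing Rab genes were lower, both secretory (Rab27b and Rab3c), where 604 of 7360 genes were. Counting each of the probe sets, an alternative chosen after seeing the data, also gave 2. Of 400 recomputed member values, 384 lay within the probe-set gap of 0.41 of the reported one. Part of this was fixed in advance, since probe-set handling cannot alter the 23 genes with 1 probe set. Leaving the symbols as annotated changed no member value either. Rab27b, the 1 called member, kept its sign. The sign was kept under each of 8 alternatives by 39 of 50 members. No paired analysis was possible because the genotypes are single arrays, so leaving one out was not possible either.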

Other observations

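The fusion machinery that Rabs recruit was examined with lists chosen after the Rab values were seen. Tethering and sorting complexes (HOPS, retromer with its sorting nexins, and exocyst) had 1 of 18 level-passing genes called higher (5.56%, against 9.39% of all), Vps39, a HOPS subunit that binds Rab7, at 85.9 and 37.2 (1.01, the array labelled Col1-Dlk1 first), just past 2-fold. The median over 19 measured was 0.34, with 16 differences above 0. Snx2, a sorting nexin, read 718 and 356 (0.99), just short of a call, and the HOPS subunit gene Vps41 504 and 305 (0.71), while the retromer core genes Vps35 and Vps29 differed by -0.20 and -0.24.

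SNAREs, the proteins that fuse membranes, had none of 25 level-passing genes called, against 16.5% of all in either direction, and a median over 29 of 0.04. The late endosomal SNARE gene Stx7 read 543 and 288 (0.89) and Vamp5 22.1 and 52.0 (-0.93). A list of Rab-like GTPases and Ran, which the symbol rule leaves out, had none of 5 called, against 16.5% of all in either direction. Ran, the GTPase of nuclear transport, read 543 and 869 (-0.67), and Rabl3, Rabl6, Ift22 and Ift27 differed by -0.06, -0.06, -0.06 and -0.32.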
